A study of Mus musculus with 2 samples.

Results

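The p21-high progenitor cells are the 300 cells of LIF-grown mouse neurospheres in which Cdkn1a, the gene of the cell cycle inhibitor p21, took the largest share of the cell's transcripts. They were drawn from 3055 cells that had at least 500 detected genes, at least 2000 unique molecular identifiers (UMIs, each standing for 1 captured RNA molecule) and at most 10% mitochondrial UMIs, out of 4000 barcodes in the deposited table. They made up 9.82% of those 3055 cells and were compared with the 300 cells of the lowest Cdkn1a share, called p21-low cells here. Because Cdkn1a chose both groups, its own values only describe the choice, and it was removed from every cell before any comparison.

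The spheres were grown from the lateral ventricle walls of CD1 mouse embryos in medium without serum that held the cytokine leukemia inhibitory factor (LIF) at 10 ng/mL, a culture for primitive neural stem cells. They were dissociated after 7 to 10 days of culture, and a sphere had to measure 50 μm or more to be taken as a primitive neurosphere. Transcripts were captured by Drop-seq, in which a bead in each droplet barcodes the polyadenylated RNA of a single cell. The labels list 2 samples of the same kind, but nothing assigns a barcode to either, so the table counted as 1 sample without replicates. No treatment was contrasted and no test was possible, and every interval below is a 95% interval that covers counting error only. The number and age of the embryos are not stated in these sources.

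p21 binds and blocks the cyclin-dependent kinases that drive cells out of G1 and into S phase, and it also binds the replication clamp PCNA. Its best known activator is the transcription factor p53, which responds to DNA damage and other stress and is held in check by Mdm2, itself a p53 target. With the kinases blocked, the retinoblastoma family proteins stay active and repress genes of S phase, and with the DREAM complex also genes of mitosis. Cdkn1a can also be induced without p53, for example by TGF-beta signalling, and p21 is known to restrain the division of neural stem cells.

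The Cdkn1a values that set the choice formed a continuum. Cdkn1a took 0.201% to 0.742% of the UMIs of a p21-high cell (median 0.254%), which came to 5 to 51 UMIs (median 11). The median over all 3055 cells was 0.0760%. The last cell inside the group had 14 Cdkn1a UMIs of 6978 (0.200631%) and the next cell, outside it, had 9 of 4488 (0.200535%). For 272 of the 300 p21-high cells the interval of the cell's own share included that limit, as it did for 1303 other cells and for none of the p21-low cells, so membership near the limit was uncertain. All 300 p21-low cells had 0 Cdkn1a UMIs. They were the deepest of the 356 cells without one, and the 56 left out had at most 2324 UMIs.

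The p21-high cells had a median of 4001 UMIs (2001 to 20676) and the p21-low cells 3550 (2331 to 11985). Each cell was therefore thinned at random to 1900 UMIs, which gave 570000 UMIs in each group. At that depth the median number of detected genes was 1208 in p21-high and 1221 in p21-low cells. Mitochondrial genes had a ratio of p21-high over p21-low UMIs of 1.08 (1.05 to 1.099), ribosomal protein genes 0.982 (0.970 to 0.994) and the nuclear RNA Malat1 1.25 (1.17 to 1.34), and the part of these differences in the results below was not tested. Of the p21-high barcodes 19 ended in an unread base and 3 lay within 1 base of another kept barcode, against 15 and 2 of the p21-low barcodes. Doublets were not removed.

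Short stretches of 5 promoters are shown because they hold a match to the p53 response element. They lie upstream of a RefSeq start of genes that this comparison found higher, and of Cdkn1a itself. The element consists of 2 copies of the 10-base p53 repeat, here allowed 1 base between them and up to 2 mismatches, with the core C and G of each repeat intact. It reads alike on both strands, and no other motif was searched. The sequences are those of RefSeq on GRCm38.p6, written 5′ to 3′ on the strand of the gene, with the match in capitals and 20 bases on either side. They lie at chr17:29090908-29090967 (Cdkn1a, plus strand), chr11:40755442-40755501 (Ccng1, minus), chr9:66946276-66946335 (Rps27l, plus), chr7:45467059-45467119 (Bax, minus) and chr8:22185983-22186042 (Ckap2, minus).
Cdkn1a: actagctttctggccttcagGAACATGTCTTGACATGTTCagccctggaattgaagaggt
Ccng1: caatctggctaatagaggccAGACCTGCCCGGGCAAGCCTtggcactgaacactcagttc
Rps27l: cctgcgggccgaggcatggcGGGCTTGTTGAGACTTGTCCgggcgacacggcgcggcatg
Bax: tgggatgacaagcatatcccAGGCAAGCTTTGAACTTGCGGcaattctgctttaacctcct
Ckap2: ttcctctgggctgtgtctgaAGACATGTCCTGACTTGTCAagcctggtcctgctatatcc

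The matches in Cdkn1a, Ccng1 and Rps27l had 1 mismatch and those in Bax and Ckap2 had 2, and in Bax 1 base separated the repeats. The match began 51 bases before the RefSeq start in Cdkn1a, 195 in Ccng1, 117 in Rps27l, 201 in Bax and 203 in Ckap2. All 5 stretches lie wholly upstream of that start, ending 12 bases before it in Cdkn1a and 78 to 164 in the others. Another annotation, GENCODE, begins Rps27l farther upstream, at chr9:66946086, so by GENCODE the Rps27l stretch lies inside the gene. RefSeq lists 2 Cdkn1a starts 2790 bases apart, and the match lay at the upstream start only. Over windows from 250 bases before to 50 after a start, such a match occurred in 224 of 32851 promoters (0.682%). By gene, it occurred for 33 of the 3422 compared genes with a promoter in the table (0.964%), for 4 of 38 genes called higher (10.5%) and for 0 of 20 called lower. A match is a description of these letters and says nothing on p53 binding in these cells. The search was added after the gene calls were known.

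Known p53 targets were higher in p21-high cells. A gene was called higher or lower when the whole interval of its p21-high over p21-low ratio lay above 1.3 or below the inverse of 1.3. Of the 42 genes on 4 fixed lists of known p53 targets, Cdkn1a not among them, 21 had the 50 UMIs over both groups needed for a call. Of these 21, 14 were called higher and 0 lower, and their median ratio was 2.34. The background was 44 genes higher, 1.03% of the 4267 genes compared, at a median ratio over all genes of 0.979. Summed over the 42 genes, p21-high cells held 4560 UMIs and p21-low cells 2724, a ratio of 1.67 (1.60 to 1.76). All 14 were also called with a second random thinning and at full depth, but only 7 of them against 300 cells from the middle of the Cdkn1a ranking. In that comparison Ckap2 had a ratio of 1.14 (0.94 to 1.38), Mdm2 1.45 (0.94 to 2.25) and Abhd4 1.37 (0.93 to 2.02). In the 106 p21-high and 87 p21-low cells without a UMI of 6 proliferation genes, Ddit4 had a ratio of 1.104 (0.78 to 1.58). There the interval also included 1 for Btg2 (1.46, 0.96 to 2.25), Mdm2 (1.95, 0.81 to 5.15), Gdf15 (2.19, 0.81 to 6.83) and Bbc3 (1.92, 0.69 to 6.08). The other 21 genes, under the minimum, held 323 UMIs against 188, and 17 of them had more UMIs in p21-high and 4 in p21-low cells. Those 4 were Xpc (5 against 14), Sesn1 (6 against 13), Tigar (15 against 21) and Gadd45a (10 against 11).

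Among the genes that feed back on p53, 3 of 5 were called higher and the list's sum was 570 UMIs against 215, a ratio of 2.65 (2.26 to 3.12). Ccng1, the gene of cyclin G1, which recruits a phosphatase to Mdm2, had 301 UMIs in p21-high and 86 in p21-low cells, a ratio of 3.50 (2.75 to 4.50). It was detected in 170 p21-high cells (56.7%, 50.9 to 62.4) and 66 p21-low cells (22%, 17.4 to 27.1). Trp53inp1, which encodes a stress protein that increases p53 activity, had 93 against 18 UMIs and the largest ratio among the 21 genes with at least 50 UMIs, 5.17 (3.10 to 9.10). Mdm2, the ubiquitin ligase that degrades p53, had 55 against 21 UMIs (2.62, 1.56 to 4.56). The RNA-binding protein gene Zmat3 had 51 against 36 UMIs and the long noncoding RNA Pvt1 40 against 31, and neither was called. No cell type known to lack these transcripts was at hand, so the share of cells that free RNA alone gives was not measured.

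Among the arrest and survival genes, 2 of 4 were called higher, and the list held 447 UMIs against 283 (1.58, 1.36 to 1.84). Btg2, an antiproliferative gene that is also a marker of neurogenic divisions, had 175 against 73 UMIs (2.40, 1.81 to 3.19). Gdf15, the gene of a secreted stress factor, had 47 against 12 UMIs (3.92, 2.05 to 8.11). Plk2, a kinase gene that p53 can induce, had 130 against 135 UMIs and was not called. Sesn2, the gene of a stress sensor that restrains mTORC1, had 45 against 23 UMIs, and its interval of 1.16 to 3.39 lay above 1 but not above 1.3.

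Genes of cell death had a summed ratio of 1.88 (1.66 to 2.13), with 763 UMIs against 406 and 3 of 4 genes called higher. Bax, the pore former of the mitochondrial pathway, had 443 against 283 UMIs (1.57, 1.35 to 1.82). Bbc3, which encodes the BH3-only protein PUMA, had 45 against 9 UMIs (5, 2.41 to 11.6). Phlda3, the gene of an inhibitor of AKT, had 88 against 35 UMIs (2.51, 1.68 to 3.83). The autophagy gene Ei24 had 49 against 32 UMIs and was not called. Some death genes had too few UMIs for a call, among them the receptor genes Eda2r (39 against 10) and Fas (22 against 4) and the nuclease gene Aen (17 against 5). Apaf1, also under the minimum, had 17 against 16. The BCL2 family list, whose genes set the threshold for that pathway, had 0 of 3 genes called and a ratio of 1.16 (0.943 to 1.43).

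In the repair and metabolism list 6 of 8 genes were called higher and the sum was 2780 against 1820 UMIs (1.53, 1.44 to 1.62). Ercc5, the gene of the XPG endonuclease of nucleotide excision repair, had 70 against 23 UMIs (3.04, 1.88 to 5.11). The mTORC1 inhibitor gene Ddit4 had 224 against 122 UMIs (1.84, 1.47 to 2.31), and its relative Ddit4l had 241 against 164 (1.47, 1.20 to 1.80), short of a call. Ak1, an adenylate kinase gene, had 96 against 41 UMIs (2.34, 1.61 to 3.46), and the hydrolase gene Abhd4 had 67 against 27 (2.48, 1.57 to 4.04). Rps27l gave the most UMIs of all p53 targets, 1488 against 1050 (1.42, 1.31 to 1.54). Its sequence is close to that of the ribosomal protein gene Rps27, so its count is uncertain, and without it the 4 lists together had a ratio of 1.84 (1.73 to 1.95). Pmm1, a phosphomannomutase gene, had 256 against 222 UMIs and was not called.

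**Figure D1:**
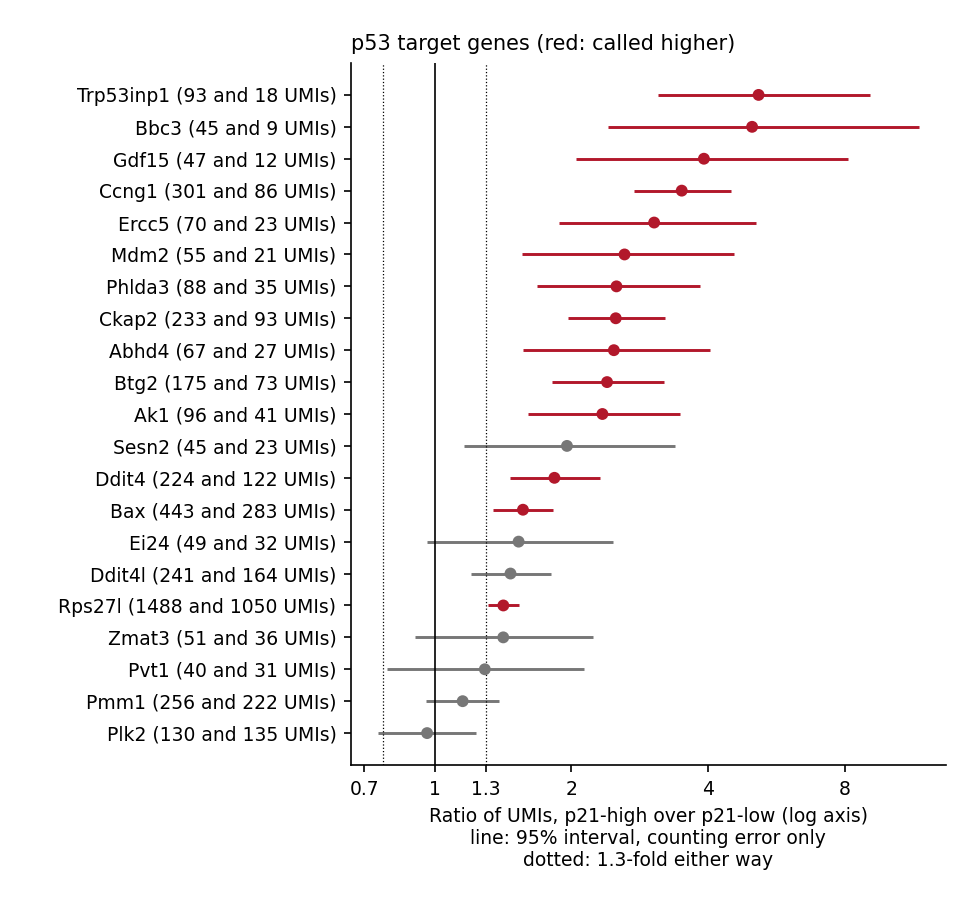
Ratio of UMIs in p21-high over p21-low cells (horizontal log axis) for each of the 21 p53 targets with at least 50 UMIs, with 95% intervals for counting error, the UMIs of the p21-high and then the p21-low group in parentheses, and dotted lines at 1.3-fold either way. The 14 genes in red have their whole interval above 1.3, and Plk2, at 130 and 135 UMIs, is the only one with a ratio under 1.

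The p53 gene itself was not called. Trp53 had 100 UMIs in p21-high and 113 in p21-low cells, a ratio of 0.88 (0.67 to 1.17). Of 7 measured genes on the list of p53 and its regulators 0 were called, and the summed ratio was 0.897 (0.827 to 0.974). Most of the list's UMIs came from ribosomal protein genes: Rpl23 (631 against 706 UMIs) and Rpl11 (180 against 204), whose product binds Mdm2. Rpl23 was the only measured gene of the list with its whole interval below 1 (0.894, 0.801 to 0.996), so the sum says little on the other regulators. The list also includes the checkpoint kinase gene Chek1 (21 against 30 UMIs).

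In single cells the p53 target lists formed shifted, overlapping distributions. The lowest, median and highest sums were 2, 15 and 35 UMIs in the p21-high cells and 1, 8.5 and 24 in the p21-low cells, with the middle 50% of cells at 11 to 18 and 6 to 12. Of the p21-high cells 278 of 300 lay above the p21-low median, against 150 of 300 p21-low cells. Leaving Rps27l aside, a p21-high cell held a median of 4 of the other 13 called p53 targets (range 1 to 10) and a p21-low cell 2 (range 0 to 6). At least 5 of the 13 were detected in 118 p21-high and 8 p21-low cells, and none in 0 and 24. The 13 genes were picked by these same UMIs, so those counts describe how the difference was spread over cells and add no evidence for it.

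**Figure D2:**
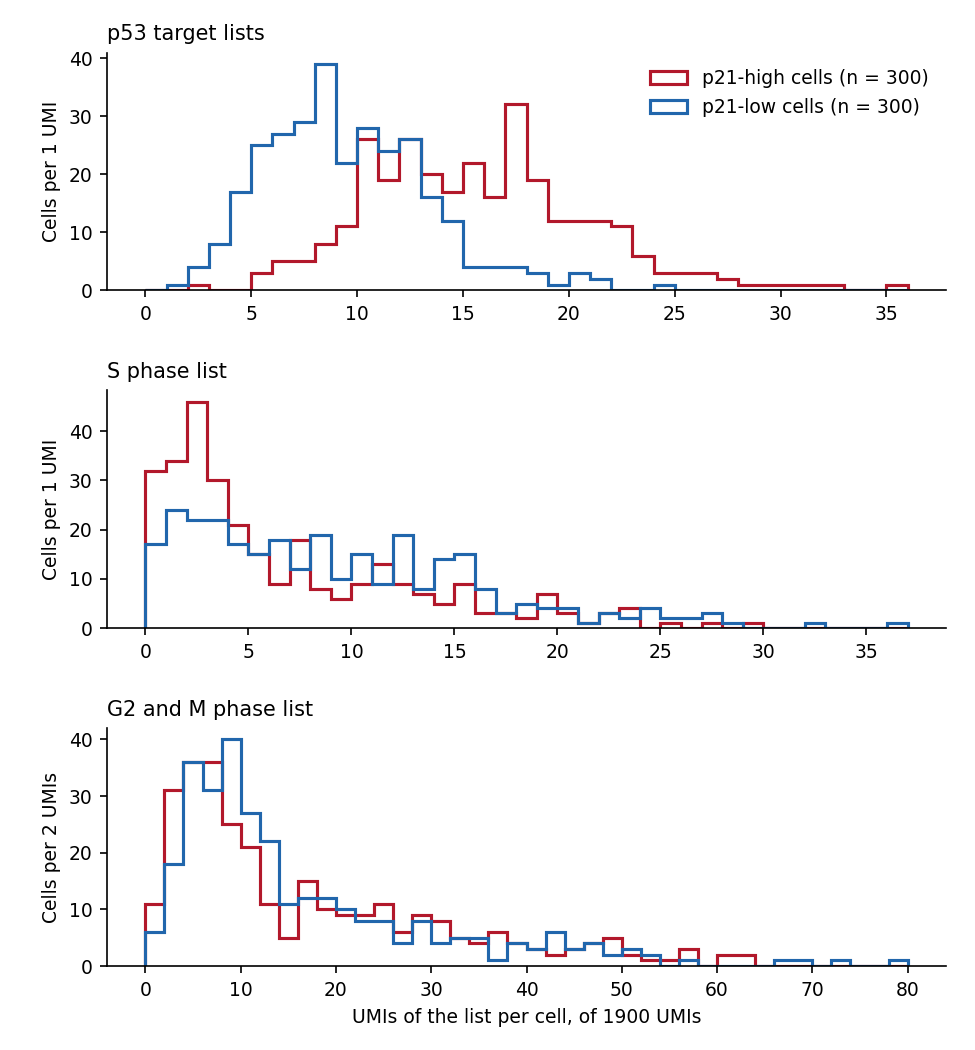
Number of cells (vertical axis) by UMIs per cell of the p53 target, S phase and G2 and M phase lists, of 1900 UMIs, for 300 p21-high (red) and 300 p21-low cells (blue). The p53 medians are 15 and 8.5 UMIs and the S phase medians 4 and 8, while both groups have a G2 and M phase median of 10.

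S phase genes were lower in p21-high cells. The list of 43 genes held 1898 UMIs in p21-high and 2646 in p21-low cells, a ratio of 0.717 (0.676 to 0.761). Of its 30 measured genes 5 were called lower and 0 higher, 14 had their whole interval below 1 and none above it, and the median ratio was 0.718. The background was 29 genes lower, 0.68% of the genes compared. Per cell, the median was 4 UMIs (middle 50% of cells 2 to 10) against 8 (3 to 13).

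Named genes among the 5 called lower act around DNA replication. Nasp, a histone chaperone gene, had 262 against 402 UMIs (0.65, 0.56 to 0.76). Cdca7, which encodes a partner of the chromatin remodeller HELLS, had 48 against 93 UMIs (0.52, 0.36 to 0.74), and Dtl, a subunit of the ubiquitin ligase that degrades p21 and CDT1, had 12 against 42 (0.29, 0.14 to 0.55). These 3 were also called with a second thinning and at full depth, but not against the middle cells. Ccne2, the gene of the S phase cyclin E2, had 22 against 49 UMIs (0.45, 0.26 to 0.76). Helicase genes were not called, with Mcm2 at 32 against 62 UMIs and Mcm4 at 39 against 70. Rrm2, a ribonucleotide reductase gene, had 169 UMIs in both groups and Pcna 134 against 161.

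The G2 and M phase list differed little as a whole. Its 55 genes held 4949 UMIs against 4834, a ratio of 1.02 (0.984 to 1.07), and both groups had a median of 10 UMIs per cell. Of 44 measured genes 2 were called higher and 0 lower, beside 1.03% and 0.68% of all genes compared. Ckap2, the gene of a spindle protein that is also on the p53 target list, had 233 against 93 UMIs (2.51, 1.96 to 3.22). Psrc1, which encodes a microtubule protein of the spindle and has been described as a p53 target, had 151 against 61 UMIs (2.48, 1.83 to 3.39). Without them the ratio was 0.975 (0.936 to 1.02), and over the alternatives tried the whole list ranged from 0.846 to 1.12. Mki67 had 128 against 111 UMIs, Top2a 200 against 163, Cdk1 142 against 121 and Ccnb1 72 against 79. Cdc20, the activator of the anaphase-promoting complex, had 106 against 141 and the centromere histone gene Cenpa 108 against 151.

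**Figure D3:**
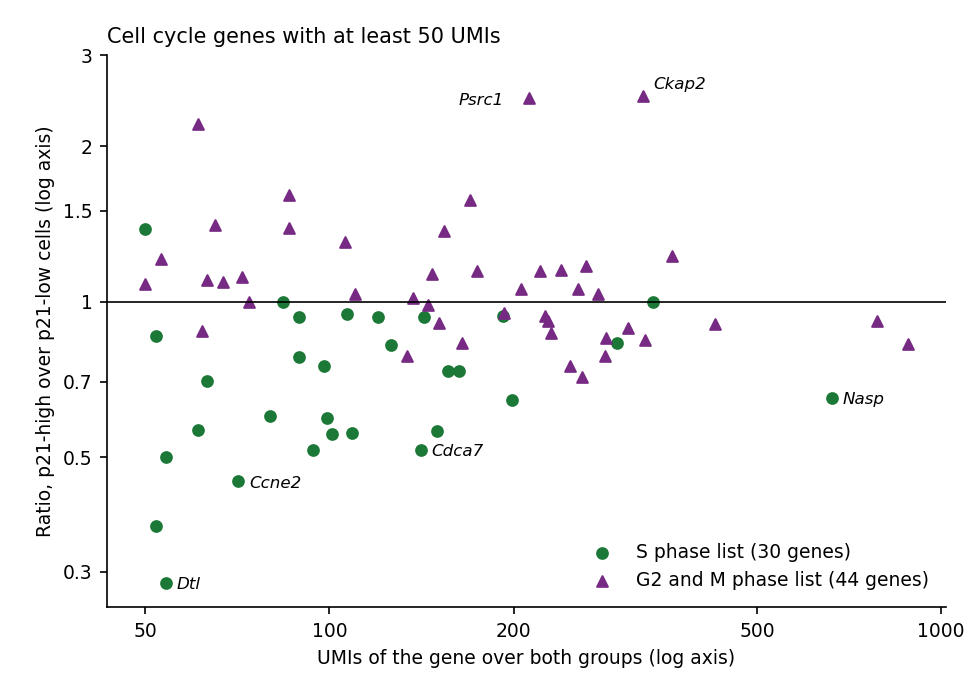
Ratio of UMIs in p21-high over p21-low cells (vertical log axis) against the gene's UMIs over both groups (horizontal log axis) for 30 S phase genes (circles) and 44 G2 and M phase genes (triangles), with the names of 6 of those called. The S phase genes lie mostly below 1, at a median of 0.718, whereas Ckap2 (2.51) and Psrc1 (2.48) stand above the other G2 and M phase genes, with Kif23 next (2.21, at 61 UMIs).

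Most p21-high cells had a UMI of a proliferation gene, at a median of 1 such UMI per thinned cell against 2 in p21-low cells. The summed UMIs of the 6 proliferation genes were not lower, at 913 against 860, a ratio of 1.06 (0.966 to 1.17). Of the 6 genes 4 had a ratio above 1 and 0 were called. The share of cells that free RNA alone gives was not measured here either. At equal depth, 194 of 300 (64.7%, 59.0 to 70.1) had a UMI of at least 1 of 6 proliferation genes, against 213 of 300 p21-low cells (71.0%, 65.5 to 76.1) and 71.7% of all 3055 cells. The p53 difference was present on both sides of this split. In cells with such a UMI the p53 lists had a mean of 14.9 UMIs per p21-high and 8.80 per p21-low cell (ratio 1.70). In cells without one the means were 15.7 and 9.77 (ratio 1.60). The S phase lists had means of 8.77 and 11.1 UMIs with a proliferation UMI and 1.85 and 3.26 without (ratios 0.791 and 0.566), although the proliferation genes include S phase genes. The G2 and M phase ratio was 1.12 in cells with a proliferation UMI and 0.846 in cells without.

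None of the 12 measured genes of G1 control was called, and their list had a ratio of 1.105 (1.05 to 1.16). Ccnd2, the gene of cyclin D2, a partner of CDK4 and CDK6, had 921 against 700 UMIs (1.32, 1.19 to 1.45), and Ccnd1 had 1393 against 1198 (1.16, 1.08 to 1.26). Other kinase inhibitors varied in direction. Cdkn2a, which encodes p16 and the Mdm2 inhibitor ARF, had 48 against 23 UMIs (2.09, 1.24 to 3.59), and its neighbour Cdkn2b 68 against 39 (1.74, 1.16 to 2.66). Of the closest relatives of Cdkn1a, Cdkn1b, encoding p27, had 93 against 98 UMIs (0.95, 0.71 to 1.27) and Cdkn1c, encoding p57, 31 against 57 (0.54, 0.34 to 0.86). Cdkn1c came from few cells, 11 p21-high and 21 p21-low.

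The cells carried the markers of progenitors. All 300 p21-high cells held transcripts of the 18 radial glia and neural stem cell genes, at a median of 31 UMIs per cell (11 to 65) against 30 (1 to 58) in p21-low cells. The list had a ratio of 1.08 (1.05 to 1.11) and 0 of 13 measured genes were called. Fabp7, the lipid-binding protein of radial glia, had 4052 against 3831 UMIs, Sox2 245 against 249, Sox9 145 against 144 and Nes 431 against 411. The intermediate filament gene Vim had 2239 against 1835 UMIs (1.22, 1.15 to 1.299), the matrix gene Tnc 257 against 185 (1.39, 1.15 to 1.69) and the endothelin receptor gene Ednrb 183 against 127 (1.44, 1.14 to 1.82), each above 1 but short of a call.

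Among the markers of more committed cells, only the intermediate progenitor list gave calls. That list held 633 against 468 UMIs, a ratio of 1.35 (1.20 to 1.53). Of its 5 measured genes 2 were called higher, Gadd45g and Btg2, which is also on a p53 target list. The background was 1.03% of all genes compared. Gadd45g, a stress and differentiation gene, had 167 against 87 UMIs (1.92, 1.47 to 2.52) and Btg2 175 against 73, while Eomes had 0 UMIs in both groups. The list's whole excess lay in Gadd45g and Btg2. Its other genes together had fewer UMIs in p21-high than in p21-low cells. The immature neuron list had a ratio of 0.844 (0.758 to 0.940) and 0 of 4 genes called, with Stmn2 at 0 against 29 UMIs and Dcx at 1 against 11. At least 3 UMIs of 9 neuron genes were found in 2 p21-high and 7 p21-low cells. The oligodendrocyte list had a ratio of 0.907 (0.838 to 0.982), with Olig2 at 346 against 377 UMIs and Pdgfra at 0 against 4. The astrocyte list had a ratio of 1.07 (0.987 to 1.16) and Gfap 0 against 2 UMIs. The 3 microglia and 5 fibroblast markers in the table had 0 UMIs in both groups, which by the limit of 3 counts allows a share of up to 1% of cells with a UMI. Endothelial and mural markers had 6 and 10 UMIs in p21-high and 5 and 5 in p21-low cells.

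Other programs that can accompany p21 were not called. The senescence list had 0 of 5 genes called and a ratio of 1.05 (0.982 to 1.12). Of its 5 measured ratios 4 were above 1, 2 of them by their whole interval, and 1 lay wholly below 1. Il6 and Cxcl1 were at 0 UMIs in both groups, and Lmnb1, the lamin gene lost in senescence, had 107 against 147 (0.73, 0.56 to 0.94). TGF-beta and BMP targets had a ratio of 0.949 (0.825 to 1.09), LIF receptor and STAT3 genes 0.920 (0.717 to 1.18), Notch genes 1.06 (0.938 to 1.19) and quiescent stem cell genes 1.02 (0.939 to 1.104). The amino acid and unfolded protein response list had a ratio of 0.905 (0.828 to 0.989), with its regulator Atf4 at 120 against 163 UMIs. Hypoxia and glycolysis genes had 0.924 (0.858 to 0.994), ERK feedback genes 0.955 (0.865 to 1.05) and NRF2 and metallothionein genes 0.990 (0.944 to 1.04). Immediate early genes had 1.14 (1.03 to 1.26), with Jund at 76 against 49, Egr1 at 161 against 126 and Jun at 151 against 160, and 0 of 9 genes called. The interferon and MHC class I list had a ratio of 1.34 (1.18 to 1.54), with all 5 measured ratios above 1, 3 of them by their whole interval, and none called. Among them, the antiviral gene Ifitm2 had 58 against 29 UMIs and the MHC gene H2-D1 49 against 26.

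**Figure D4:**
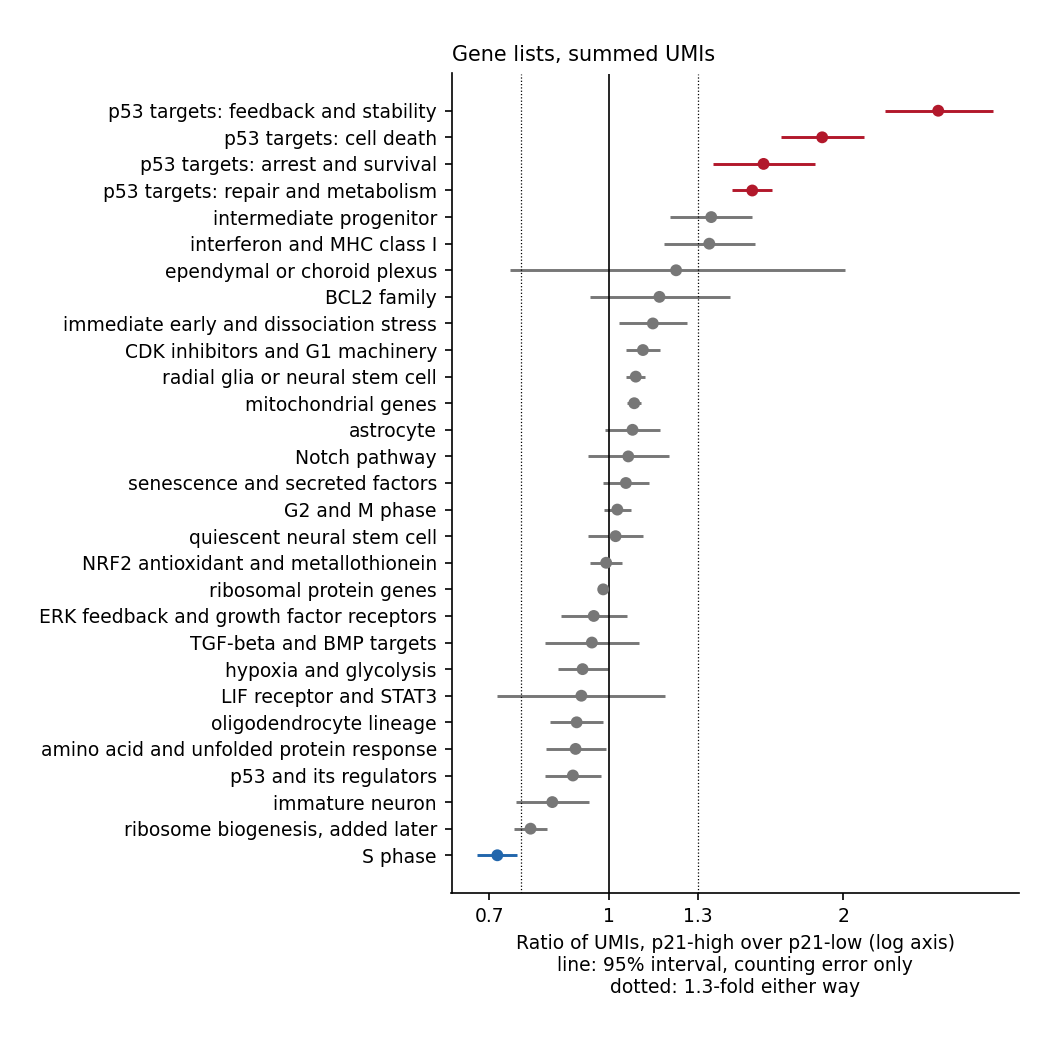
Ratio of summed UMIs in p21-high over p21-low cells (horizontal log axis) for each gene list with at least 50 UMIs, with 95% intervals for counting error and dotted lines at 1.3-fold either way. The whole interval lies above 1.3 for the 4 p53 target lists (red, ratios 1.53 to 2.65) and below the inverse of 1.3 for S phase (blue, 0.717), and the other lists lie between.

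Of the 44 genes called higher, 14 were p53 targets of the lists, Psrc1 and Gadd45g were on other lists, and 28 were on none. The leading genes outside the lists were Dcxr, a carbonyl reductase gene (67 against 20 UMIs, ratio 3.35, 2.01 to 5.83), and Sparc, the gene of a matrix glycoprotein (172 against 64, 2.69, 2.01 to 3.64). Next came the cytochrome c oxidase gene Cox6b2 (155 against 57, 2.72, 1.995 to 3.75) and Rprm, which encodes reprimo, a p53-dependent mediator of G2 arrest (51 against 15, 3.40, 1.88 to 6.51). Rchy1, also called Pirh2, is a p53 target whose ubiquitin ligase degrades p53, and it had 80 against 30 UMIs (2.67, 1.73 to 4.20). The antiproliferative gene Tob1, a relative of Btg2, had 86 against 36 (2.39, 1.60 to 3.63). Gas6, the ligand of TAM receptors, had 48 against 16, and the epoxide hydrolase gene Ephx1 had 148 against 72. Arpp21, Rap2b, Suco, 4933426M11Rik, Enho, Cdh13 and Lrrc28 completed the 15, with ratios of 2.08 to 3.06. With a second thinning 28 of the 44 were called again, Rprm, Arpp21, Rap2b, Enho and Cdh13 not among them, and all 44 kept a ratio above 1 at full depth.

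Single genes called lower depended on the random thinning. Of the 29, only 6 were called again with a second thinning, the 3 S phase genes Nasp, Cdca7 and Dtl and also Rif1, Tm7sf2 and Tsr1, and these 6 were also called at full depth. Tsr1, a maturation factor of the small ribosomal subunit, had 25 against 67 UMIs (0.37, 0.23 to 0.60). Rif1, a regulator of replication timing and of repair, had 35 against 84 (0.42, 0.27 to 0.63), and the sterol reductase gene Tm7sf2 had 21 against 55 (0.38, 0.22 to 0.64). The other leading lower genes were Cep68, Tmem179b, D17H6S56E-5, 2610203C20Rik, Limd1, Mycbp2, Cenpk, Smarcc2, Zfp580, Ifrd1, Nolc1 and Car8, with ratios of 0.32 to 0.59. All 29 kept a ratio below 1 at full depth. Because Tsr1, Nolc1 and Nop56 were among the 29, a list of 20 ribosome biogenesis genes was added after these values were seen. It held 3030 UMIs against 3828, a ratio of 0.792 (0.754 to 0.830), with 3 of 16 measured genes called lower, beside 0.68% of all genes compared. Having been prompted by Tsr1, Nolc1 and Nop56, the list is no separate evidence.

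The p53 lists went up over the whole range of Cdkn1a and not only in the p21-high cells. All 3055 cells were ranked by Cdkn1a share and split into 10 bins of 305 or 306 cells. The mean sum of p53 target UMIs per cell was 9.16 in the lowest bin, 11.5 in the fifth bin, 13.97 in the ninth and 15.2 in the highest, and it was higher in each bin than in the bin before. Bins 3 to 9, which hold no cell of either group, went from 9.93 to 13.97. Ccng1 went from 0.291 UMIs per cell in the lowest bin to 0.957 in the ninth and 1.003 in the highest, and Trp53inp1 from 0.0654 to 0.256 and 0.308. S phase genes stood at 8.53 UMIs per cell in the lowest bin, 7.19 in the seventh, 7.68 in the eighth, 7.55 in the ninth and 6.32 in the highest. The highest bin had the lowest mean, but the course before it was uneven. G2 and M phase genes had 15.6, 19.3 and 17.5 UMIs per cell in the lowest 3 bins. They then went down from 18.96 in the fifth bin to 17.6 in the ninth and 16.6 in the highest. Ties were ranked by depth, so the lowest bin held the shallower cells without a Cdkn1a UMI. Its median was 3035.5 UMIs before thinning, against 5572 in the second bin, and the part of depth in these courses was not tested. Radial glia genes stayed between 30.1 and 32.6.

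**Figure D5:**
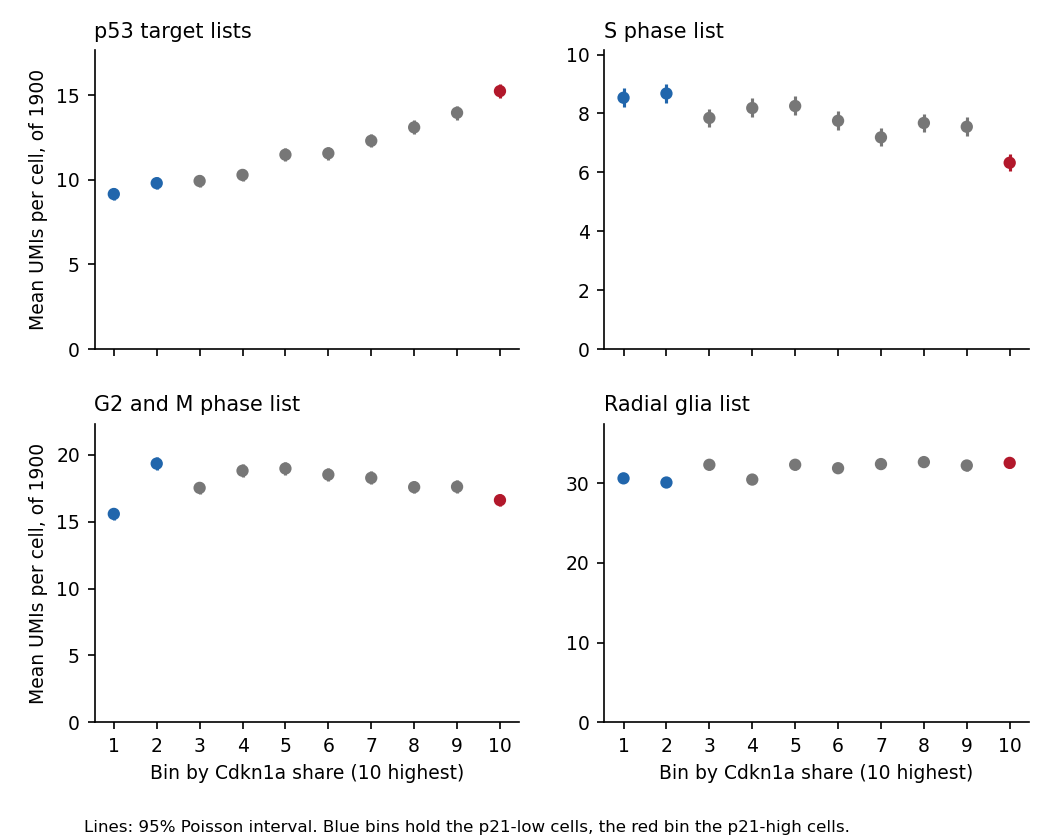
Mean UMIs per cell of 4 gene lists, of 1900 UMIs (vertical axes from 0), over 10 bins of 305 or 306 cells ranked by Cdkn1a share (horizontal axis), with 95% Poisson intervals, mostly smaller than the points. The p53 lists go up from 9.16 to 15.2 UMIs in steps, the S phase list ends at 6.32, and the radial glia list stays between 30.1 and 32.6.

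The p21-high cells were only partly the cells with the most p53 target RNA. Of the 300 cells with the highest p53 list share among the 3055, 87 were p21-high, 29.0% (23.9 to 34.5) of either group of 300, and 6 were p21-low (2%), against a share of 9.82% that 300 cells have among all 3055. The top 300 for the amino acid response held 22 p21-high and 43 p21-low cells, those for hypoxia 42 of each, those for S phase 24 and 40, and those for G2 and M phase 21 and 22. Those for the proliferation genes held 30 and 18. Within the p21-high cells, the 150 with the higher Cdkn1a share had 15.8 p53 target UMIs per cell and the other 150 had 14.6, with 6.13 and 6.52 S phase UMIs. Across the 300 p21-high cells, which share 1 table and 1 depth, Spearman's rho was 0.203 between the p53 sum and the Cdkn1a share, −0.209 between the p53 and the S phase sums, and 0.656 between the S phase and the G2 and M phase sums, given as descriptions only.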

How the data were processed

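Gene expression was measured by Drop-seq in LIF-grown primary neurospheres. The authors deposited UMI counts, whole numbers for each gene in each barcode (19144 genes, 4000 barcodes, 17591915 UMIs), not normalized. The build was mm10, per the submitters' processing notes, and the aligner, the counting program, strand handling and annotation are not stated in these sources. Cells and groups were chosen as the report states, ties going to the deeper cell. Each cell was thinned without replacement to 1900 UMIs after removal of Cdkn1a. Ratios of summed counts have exact conditional binomial (Clopper-Pearson) 95% intervals, shares exact binomial ones and levels exact Poisson ones. Intervals ignore variation between cells, so calls describe these cells and are not tests.

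There were 31 gene lists with 468 different genes, 452 of them in the table and 3 of those under an older symbol. The members and lists were chosen with earlier results of these data known. The named genes are those of the lists and, outside them, the 15 called higher with the highest lower bound and the 15 called lower with the lowest upper bound; Nop56 was named after its value was seen. Some listed genes are not reported here. Overlapping or antisense genes may share reads. The procedure was tested on simulated data. Alternatives were other depths, seeds, thresholds, group sizes, filters and comparison cells; 1 was added after seeing the data. The tools were scipy 1.17.1 and numpy 2.4.6 under Python 3.11.15, with tables in pandas 2.3.3 and plots in matplotlib 3.10.9.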

Additional observations from a re-analysis of the deposited data

How the results depend on the processing

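Of 14 alternatives, the p53 lists stayed above 1 and the S phase list below 1 in all 12 that recomputed their sums. The 21 called list genes kept their direction in these 12 and 10 of them kept the whole interval on its side of 1. The p53 ratio moved to 1.84 with 150 cells a group, 1.54 with 600 and 1.29 against 300 cells from the middle of the Cdkn1a ranking. The S phase ratio moved to 0.784 without thinning, 0.663 with 150 cells, 0.794 with 600, 0.822 against the middle cells, and 0.566 without or 0.791 with a proliferation UMI. The G2 and M phase ratio took both directions, at 1.08 without thinning, 0.869 with 150 cells, 0.971 with 600, 0.892 against the middle cells, 0.924 for cells of at least 3000 UMIs, and 0.846 without or 1.12 with a proliferation UMI. Genes called higher numbered 20 at 1000 UMIs a cell, 132 without thinning, 24 at a 1.5-fold threshold, 23 against the middle cells, and 17 without or 23 with a proliferation UMI. Genes called lower numbered 7, 54, 7, 12, 9 and 12 under the same settings, 50 with a minimum of 20 UMIs per gene, 15 with 150 cells, 16 with 600 and 16 for cells of at least 3000 UMIs. Settings with fewer UMIs or cells count fewer molecules, and the cause of the other moves was not tested. Against the middle cells 15 of the 44 higher and 6 of the 29 lower genes were called again. The alternative with a proliferation UMI was chosen after seeing the data. No paired analysis was possible because the barcodes carry no sample. Genes under 50 UMIs were left out of the calls by that minimum, and with a minimum of 20 UMIs 66 genes were called higher.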
